A study of Mus musculus with 7 samples.

Results

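The genes described here are 9 that encode subunits of activator protein 1 (AP-1): *Fos*, *Fosb* and *Fosl2* of the Fos group, *Jun*, *Junb* and *Jund* of the Jun group, and *Atf3*, *Batf* and *Maff* of related groups. They were taken by symbol from a list of subunits, a rule that sets no threshold on their values, and all 9 were among the 25033 symbols in each count file. RNA came from lin- bone marrow, a fraction depleted of mature blood lineages and enriched in stem and progenitor cells, of 3 *HRP-2* wild type (WT) and 4 *HRP-2* knockout (KO) mice. The knockout allele is tm1b of *Hdgfrp2* on C57BL/6N, carried in the whole animal, and the labels name no treatment in either genotype, nor a sex or a day of isolation. Per the study's methods, the marrow was from femur and tibia of mice aged 6 to 8 weeks, red blood cells were lysed and the lin- cells were isolated with a depletion kit. Each library was 1 mouse, and the labels number the mice as biological replicates.

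AP-1 is not 1 protein but a family of dimers. Its subunits share a basic region, which contacts DNA, and a leucine zipper, which holds the dimer together. Jun proteins pair with each other or with Fos proteins, whereas Fos proteins need a Jun partner. The classic site is TGACTCA, called TRE, and dimers with ATF subunits also bind the cAMP response element (CRE), TGACGTCA. Many of these genes are immediate-early genes, which are transcribed within minutes of a stimulus without new protein synthesis, and the handling of tissue during cell isolation is itself known to induce them. In marrow, Jun and Fos proteins are also known regulators of myeloid differentiation. The spread between mice of 1 genotype was therefore set beside the difference between genotypes.

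Promoter sequences are shown for *Fos*, *Jun* and *Atf3*, which were among the members that varied most between mice, and for *Fosl2*, which followed another order of mice. The windows are from RefSeq on GRCm38.p6, 250 bases before to 50 bases after an annotated start, 5′ to 3′ on the strand of the gene, and capitals mark matches to the motifs searched.
*Fos*, chr12:85473640-85473939, plus strand: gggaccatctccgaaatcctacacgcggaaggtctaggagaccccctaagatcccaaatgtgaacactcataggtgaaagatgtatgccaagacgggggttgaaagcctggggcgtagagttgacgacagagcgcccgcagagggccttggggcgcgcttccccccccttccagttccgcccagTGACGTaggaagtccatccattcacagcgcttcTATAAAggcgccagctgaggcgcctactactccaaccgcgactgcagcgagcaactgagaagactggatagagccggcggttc
*Jun*, chr4:95052173-95052472, minus strand: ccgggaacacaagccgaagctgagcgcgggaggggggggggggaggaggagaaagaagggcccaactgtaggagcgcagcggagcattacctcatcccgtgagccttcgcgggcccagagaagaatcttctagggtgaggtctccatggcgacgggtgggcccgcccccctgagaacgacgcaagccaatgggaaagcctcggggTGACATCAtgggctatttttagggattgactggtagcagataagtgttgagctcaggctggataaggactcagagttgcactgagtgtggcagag
*Atf3*, chr1:191183284-191183583, minus strand: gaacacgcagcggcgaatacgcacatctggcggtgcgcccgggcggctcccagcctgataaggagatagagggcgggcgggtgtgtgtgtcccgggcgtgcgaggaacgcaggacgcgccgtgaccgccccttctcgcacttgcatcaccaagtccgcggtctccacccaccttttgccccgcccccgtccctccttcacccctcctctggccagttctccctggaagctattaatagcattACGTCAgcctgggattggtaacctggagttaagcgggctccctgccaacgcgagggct
*Fosl2*, chr5:32136222-32136521, plus strand: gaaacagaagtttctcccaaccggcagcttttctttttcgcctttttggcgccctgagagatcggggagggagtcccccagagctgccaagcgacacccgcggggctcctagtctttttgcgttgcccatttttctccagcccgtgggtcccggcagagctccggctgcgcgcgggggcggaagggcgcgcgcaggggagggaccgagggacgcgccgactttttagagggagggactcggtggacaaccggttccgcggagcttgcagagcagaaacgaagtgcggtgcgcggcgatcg
All 9 members had a window, and *Maff* had 3, which gave 11 windows. TRE, CRE, TGACATCA, TATAAA and the CArG box, the binding site of serum response factor, were searched on both strands. The shorter TGACGT, which lies within the full CRE, was added after the sequences had been seen. In *Fos* the capitals mark TGACGT, which begins 66 bases before the start, and TATAAA, which begins 33 bases before it. In *Jun* they mark TGACATCA, 45 bases before the start, the type of site at which Jun and ATF2 are known to bind this promoter. In *Atf3* they mark TGACGT read on the other strand, and this window lies inside the GENCODE gene, whose first annotated start is further upstream. *Fosl2* had no match, and its window too lies inside the GENCODE gene, downstream of the first annotated start. Of the windows not printed, those of *Batf* and *Maff* held TGACGT, in *Maff* as part of a full CRE, another *Maff* window held TGACATCA, and that of *Junb* held TATAAA at the start itself. Those of *Fosb* and *Jund* held none of the motifs. The *Jund* window ends at 70697788 on chromosome 8, before the GENCODE gene begins at 70698949, so the sequence at that start was not searched. Among all 32851 windows of this length, 5.2% held TRE, 1.79% CRE, 7.51% TGACGT, 3.62% TGACATCA, 13.6% TATAAA and 1.63% a CArG box. No member window held TRE or a CArG box, which says only that these letters were not in these windows.

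Between 3525665 and 5605158 reads per library fell on genes, and no library looked like a repeat of another. The knocked-out gene, listed as *Hdgfl2*, had 156 to 228 reads in wild type and 2 to 13 in knockout mice (log2 fold change −5.09, adjusted p = 1.38e-07 by edgeR's quasi-likelihood test), as the labels state. Knockout replicate 3 had 3 *Xist* reads against 848 to 1457 in the other 6 mice and 559 *Ddx3y* reads against 0 to 4, so results are also given without it. The ribosomal RNA precursor *Rn45s* accounted for 4.94% to 20.6% of those reads. Of the markers of the labelled cells, *Kit* stood at 84.9 to 121.7 CPM and *Myb* at 590.1 to 744 CPM, while the 4 hemoglobin genes listed among the erythroid markers were at 0 in every file. In bulk RNA, fewer cells of a type and less RNA per cell cannot be told apart.

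Levels are given as CPM, read counts scaled to a common library total, with edgeR's TMM factors. Since the kit counts a transcript once, by a read close to the 3′ end, no division by length was made. By their mean over the 7 mice the order of levels was *Jun* (1279 CPM), *Fos* (931 CPM), *Fosb* (499 CPM), *Junb* (404 CPM), *Jund* (129.5 CPM), *Fosl2* (77.7 CPM), *Atf3* (34.2 CPM), *Maff* (15.5 CPM) and *Batf* (10.2 CPM). *Jun* and *Fos* lay at the 99.5 and 99.1 percentile of the 11265 genes tested, and *Batf* at the 24.8 percentile. *Jun* was above *Fos* in all 7 mice, by 1.09 to 1.80 times. Neighbours in this order were compared by the difference of their log2(CPM + 1) in each mouse. *Fosb* was above *Junb* in 4 of 7 mice, with a mean difference of 0.15 ± 0.67 (SD over mice), which was within the spread. *Maff* was above *Batf* in all 7 mice, but the mean difference of 0.55 ± 0.59 was also smaller than its SD. For the other 6 pairs the mean difference exceeded its SD, narrowly for *Jund* over *Fosl2*, at 0.72 ± 0.68. *Jund* over *Fosl2*, *Fosl2* over *Atf3* and *Atf3* over *Maff* each held in 6 of 7 mice. Together the 9 genes made up 0.175% to 0.522% of all gene reads.

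*Fos*, which encodes the founding Fos subunit, varied 2.46-fold among the wild type mice, more than the difference between the genotypes. It lies on chromosome 12 of GRCm38 from 85473890 to 85477273. *Fos* stood at 1033, 618 and 420.4 CPM in wild type replicates 1 to 3. Knockout replicates 1 to 4 had 839, 1163, 833 and 1609 CPM. Wild type replicate 1 lay above 2 of the knockout mice, so the genotypes overlapped. The means were 690.4 ± 313 CPM (SD, n = 3) and 1111 ± 366 CPM (SD, n = 4). The log2 fold change was 0.69 (standard error 0.37, 95% interval −0.19 to 1.57, adjusted p = 0.999 by edgeR's quasi-likelihood test).

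*Fosb*, a Fos subunit whose short splice form accumulates on repeated stimulation, lies on chromosome 7 from 19302696 to 19310051. Its levels were 674, 257 and 215 CPM in wild type replicates 1 to 3. Among the knockout mice, replicates 1 to 4 had 331, 651, 334 and 1028 CPM. The highest wild type mouse lay above 3 of the 4 knockout mice. The range among mice was 3.14-fold in wild type and 3.10-fold in knockout, and the ratio of the genotype means was 1.54. For *Fosb* the log2 fold change was 0.62 (standard error 0.64), and its 95% interval ran from −1.0 to 2.23.

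*Fosl2* encodes Fra-2, a Fos subunit that is usually induced later and less sharply than *Fos*, and lies on chromosome 5 from 32135801 to 32157842. It stood at 56.2, 64.5 and 80.6 CPM in wild type replicates 1 to 3. In the knockout replicates 1 and 3 it stood at 110.1 and 109.8 CPM, and in replicates 2 and 4 at 63.6 and 59.2 CPM. The knockout mice thus fell into a high and a low pair, and the low pair lay within the wild type range. The mice with the most *Fosl2* were not those with the most *Fos*. Knockout replicate 4, the highest for *Fos*, and wild type replicate 1, the third for *Fos*, had the least *Fosl2*. For *Fosl2* the log2 fold change was 0.36 (standard error 0.23, 95% interval −0.13 to 0.84). The summed CPM of 9 mature neutrophil genes was also highest in knockout replicates 3 and 1, at 24320 and 15385 CPM, where the remaining 5 had 7764 to 11445 CPM, and its part in the *Fosl2* levels was not tested. All 9 of those neutrophil genes were detected, and all 9 had a positive log2 fold change, with 0 called.

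**Figure D1:**
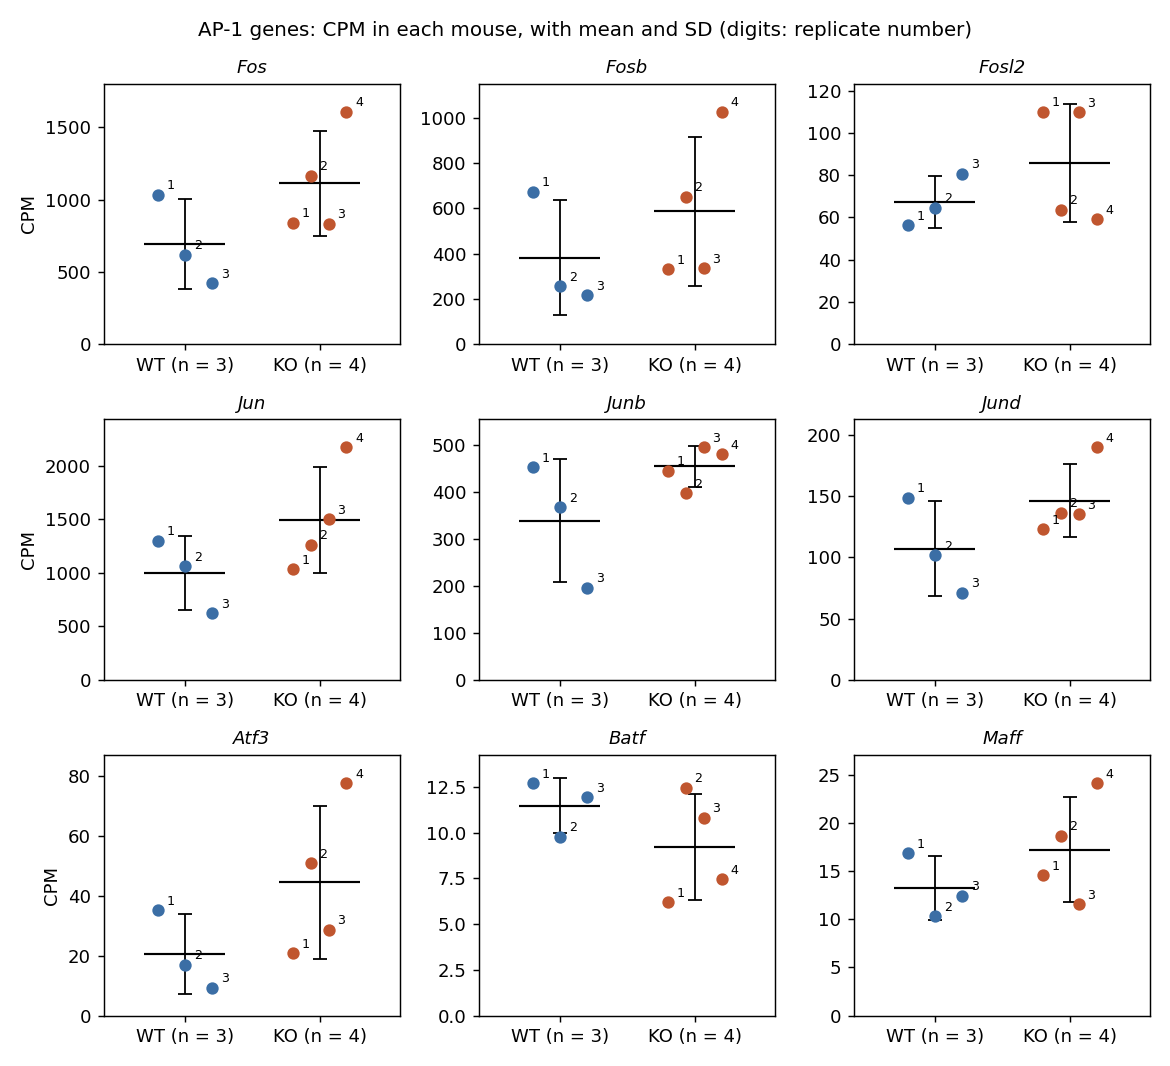
CPM (y axes, each from 0) of the 9 AP-1 genes in each mouse, with wild type in blue and knockout in orange, bars for the genotype mean and error bars for the SD. Digits are replicate numbers. The genotypes overlap in every panel, and knockout replicate 4 is the highest point in 6 of the 9.

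*Jun* encodes c-Jun, the main partner of the Fos subunits, in a single exon on chromosome 4 from 95049034 to 95052222. It stood at 1301, 1064 and 620.5 CPM in wild type replicates 1 to 3. The 4 knockout mice, in replicate order, had 1032, 1262, 1503 and 2172 CPM. Wild type replicate 1 lay above knockout replicates 1 and 2. The means were 995 ± 345 CPM (SD, n = 3) and 1492 ± 492 CPM (SD, n = 4), with a log2 fold change of 0.58 (standard error 0.31, 95% interval −0.14 to 1.31).

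*Junb*, which can restrain c-Jun and whose loss in mice is known to cause a myeloproliferative disease, lies on chromosome 8 from 84974484 to 84978718. Its levels were 453, 367 and 196 CPM in wild type replicates 1 to 3. Knockout levels of *Junb* in the same order were 444.5, 397, 494 and 479 CPM. The knockout mice were close together, with a 1.25-fold range, against a 2.31-fold range in wild type. *Junb* was the member whose range among the knockout mice was smaller than the ratio of the genotype means, 1.34. Its log2 fold change was 0.42 (standard error 0.22, 95% interval −0.06 to 0.91). *Junb* overlaps *Prdx2* by 351 bases on the opposite strand, and the strand that was counted is not given in the sources used here.

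*Jund*, the Jun subunit that most cells express without stimulation, lies on chromosome 8 from 70698949 to 70700616. It stood at 148.8, 102.0 and 71.0 CPM in wild type replicates 1 to 3. Knockout levels of *Jund*, replicates 1 to 4, were 122.9, 136.4, 135.5 and 189.9 CPM. Only knockout replicate 4 lay above wild type replicate 1. The log2 fold change was 0.44 (standard error 0.22), its 95% interval ran from −0.03 to 0.91, and the unadjusted p of 0.0645 by edgeR's quasi-likelihood test was the smallest of the 9. *Jun* and *Jund* each overlap an antisense gene that is not among the symbols of the count files.

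The 3 Fos genes summed to 716 to 1763 CPM in wild type and 1277 to 2696 CPM in knockout mice. The 3 Jun genes summed to 887 to 1902 CPM and 1600 to 2841 CPM. The ratio of the Fos sum to the Jun sum was 0.613 to 0.927 in wild type and 0.599 to 1.046 in knockout mice. The balance of Fos to Jun transcripts thus covered the whole wild type range among the knockout mice.

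*Atf3*, a stress-induced subunit that often represses, had the largest fold change of the 9 and one of the widest spreads. It lies on chromosome 1 from 191170296 to 191218039. Its levels were 35.2, 17.0 and 9.28 CPM in wild type replicates 1 to 3. Knockout replicates 1 to 4 gave 20.7, 50.8, 28.7 and 77.5 CPM. The highest wild type mouse was above 2 of the knockout mice. The range among mice was 3.80-fold in wild type and 3.74-fold in knockout, against a ratio of 2.17 between the means. For *Atf3* the log2 fold change came to 1.09 (standard error 0.63, 95% interval −0.43 to 2.61, adjusted p = 0.999 by edgeR's quasi-likelihood test).

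*Batf*, on chromosome 12 from 85686669 to 85709087 and encoding a subunit without an activation domain that works with IRF factors in lymphoid and dendritic cells, was the member with a lower mean in the knockout mice. It stood at 12.7, 9.78 and 11.9 CPM in wild type replicates 1 to 3. Among knockout replicates 1 to 4 *Batf* had 6.20, 12.4, 10.8 and 7.46 CPM, so 2 knockout mice lay within the wild type range. The knockout to wild type change of *Batf* was −0.31 on the log2 scale (standard error 0.32, 95% interval −0.98 to 0.36). *Batf* rested on 30 to 60 reads per mouse, for which counting error alone gives a coefficient of variation of up to 18.3%.

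*Maff*, on chromosome 15 from 79346621 to 79359076, encodes a small Maf protein that has no activation domain and pairs with larger leucine zipper factors. It stood at 16.9, 10.3 and 12.5 CPM in wild type replicates 1 to 3. The knockout mice, replicates 1 to 4, had 14.5, 18.7, 11.6 and 24.1 CPM. Only knockout replicates 2 and 4 lay above the wild type mice. The knockout to wild type change of *Maff* was 0.37 on the log2 scale (standard error 0.29, 95% interval −0.25 to 0.98).

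In edgeR's quasi-likelihood test across all genes, 0 of the 9 AP-1 genes had an adjusted p under 0.25, the false discovery rate used in the study, where 0.0178% of the 11265 genes tested did. At an unadjusted p under 0.05 the number was also 0 of 9, against 3.63% of all genes, and DESeq2 and limma-voom each called 0 at 0.25. The log2 fold change was positive for 8 of the 9 genes, against 49.8% of all genes, with a median of 0.44 against −0.0014 over all genes. Most of these genes, though not *Fosl2*, largely shared their high and low mice, so the 8 are not independent. The CPM values of the genotypes overlapped for all 9, whereas 5.16% of all genes showed no overlap and 2.37% did so with the higher values in knockout.

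The difference between genotype means of log2(CPM + 1) was larger than the pooled SD between mice of 1 genotype for 5 of the 9 genes, *Fos*, *Jun*, *Junb*, *Jund* and *Atf3*, where this held for 22.7% of all genes. The ratio of difference to SD ran from 0.746 for *Fosl2* to 1.35 for *Fos*. *Fosb*, the second most variable member by SD, had a ratio of 0.774. Among the wild type mice the ratio of the highest to the lowest CPM exceeded the ratio of the genotype means for 9 of 9 members, and among the knockout mice for 8 of 9. That was also so for 88.1% and 94.6% of all genes, so it does not set these genes apart.

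**Figure D2:**
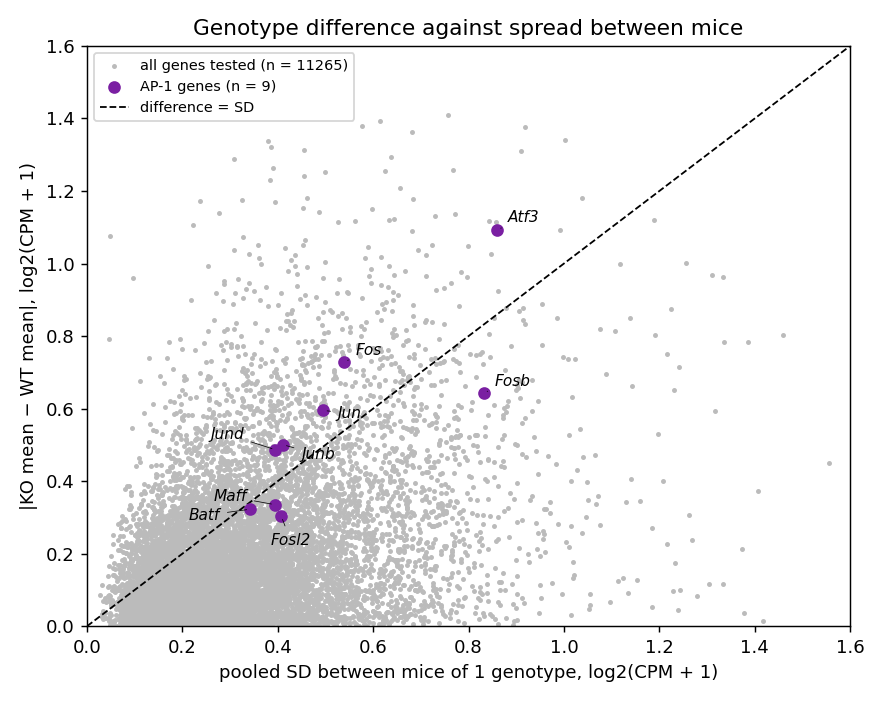
Size of the genotype difference (y axis) against the pooled SD between mice of 1 genotype (x axis), both on the log2(CPM + 1) scale, for the 9 AP-1 genes (purple) and all genes tested (grey). Above the dashed line the difference exceeds the SD. *Atf3* and *Fosb* have the largest SDs, 0.861 and 0.832, and 14 genes beyond the axes are not drawn.

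The spread itself was large for the level of these genes. The biological coefficient of variation (BCV), edgeR's estimate of the variation between mice of 1 genotype beyond counting error, was 33.1% for *Fos*, 55.4% for *Fosb*, 28.5% for *Jun* and 53.6% for *Atf3*. The trend that edgeR fits over genes of like abundance stood at 15.7%, 15.6%, 15.7% and 19.4% at those levels. The ratio of BCV to trend was above 1 for 8 of the 9 members, against 34.8% of all genes, with a median of 1.36. It was not particular to them, since it was also above 1 for 21 of the 26 other immediate-early genes tested (median 1.26) and for 9 of 9 mature neutrophil genes (median 2.73). For 7 members it lay at or above the 95 percentile of all genes tested, with *Fosb* at 99.9, *Atf3* at 99.6, *Fos* at 99.2 and *Jun* at 98.8. *Maff* and *Batf* were near the trend, with ratios of 1.03 and 0.936. Counting error contributed little for *Fos*, whose 1586 to 6474 reads per mouse give a coefficient of variation of at most 2.51%.

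**Figure D3:**
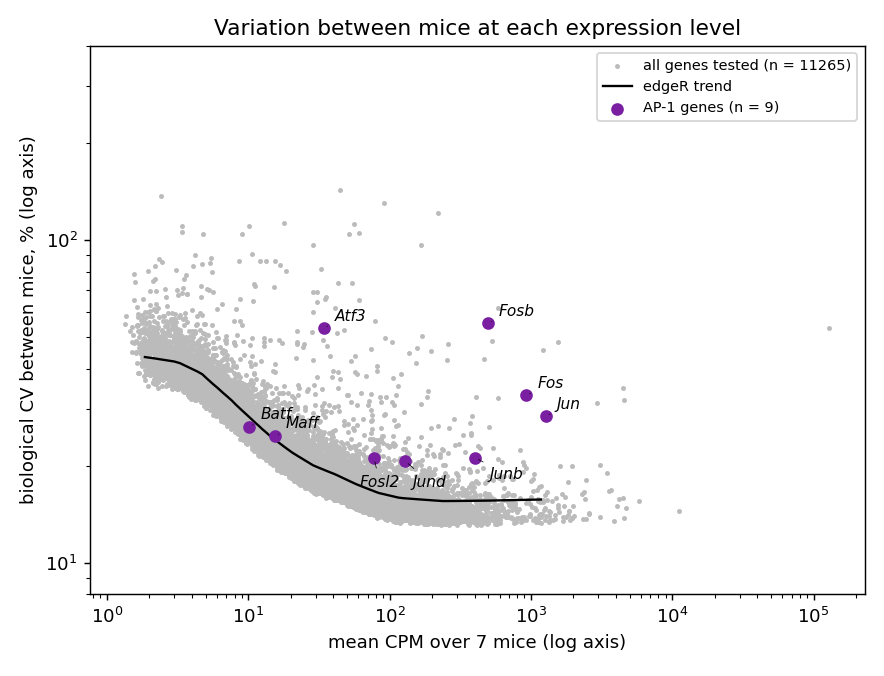
BCV between mice of 1 genotype (y axis, %, log axis) against mean CPM over 7 mice (x axis, log axis), with edgeR's trend as a black line and the 9 AP-1 genes in purple. *Fosb*, *Atf3*, *Fos* and *Jun* sit far above the trend, and *Batf* and *Maff* close to it.

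The members largely shared the same high and low mice. Knockout replicate 4 was the highest mouse for 6 of the 9 genes and wild type replicate 3 the lowest for 6, while knockout replicate 4 was highest for 14.4% and wild type replicate 3 lowest for 15.6% of all genes. Those 6 low genes were *Fos*, *Fosb*, *Jun*, *Junb*, *Jund* and *Atf3*. Over the 7 mice, which include both genotypes, the Pearson correlation of a gene with the mean z-score of the other 8 members was 0.971 for *Fos*, 0.970 for *Jund* and 0.966 for *Atf3*. It was −0.439 for *Fosl2* and −0.309 for *Batf*. These values describe 7 libraries. The share of *Rn45s* was 11.8%, 20.6% and 9.43% in wild type replicates 1 to 3, and 4.94%, 9.21%, 13.6% and 18.6% in the knockout mice by replicate. Its part in the order of mice was not tested. In the comparison of genotypes with this share as a covariate, 0 of the 9 genes were called, 8 had a positive log2 fold change and the median was 0.50, and with *Rn45s* removed before scaling the median was 0.44.

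**Figure D4:**
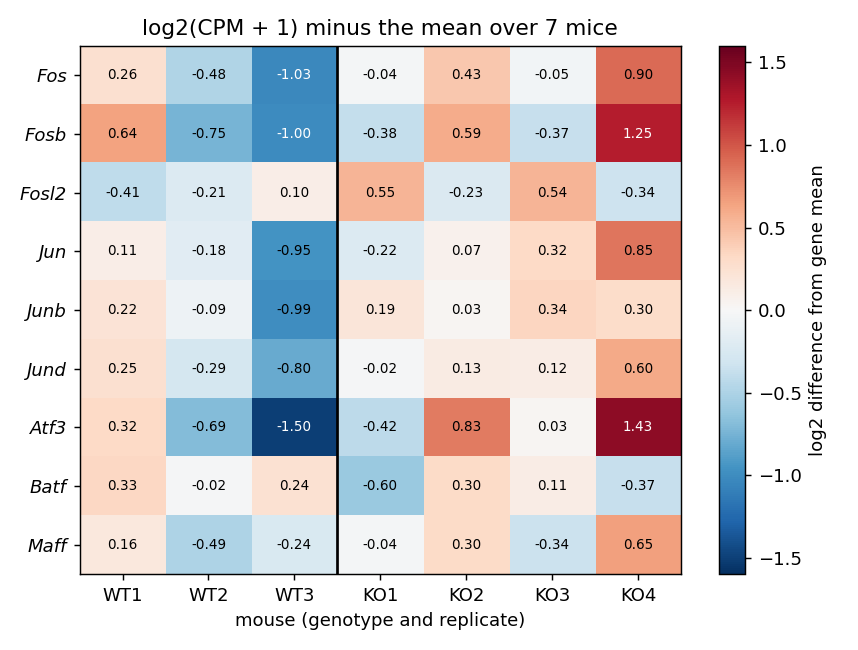
Difference of each mouse from the gene's mean over 7 mice, in log2(CPM + 1), for the 9 AP-1 genes (rows) and 7 mice (columns), with wild type left and knockout right of the line. Wild type replicate 3 is lowest and knockout replicate 4 highest for most genes, whereas *Fosl2* is highest in knockout replicates 1 and 3.

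With each mouse left out in turn, 0 of the 9 genes were called, and 8 of 9 log2 fold changes stayed positive. The size depended on single mice. Without wild type replicate 1 the log2 fold change of *Fos* was 1.10 and that of *Atf3* 1.75, and 5 genes, *Fos*, *Fosb*, *Junb*, *Jund* and *Atf3*, no longer overlapped between genotypes, against 12.5% of all genes in that fit. Without this mouse 5 genes, *Fos*, *Jun*, *Junb*, *Jund* and *Atf3*, had an unadjusted p under 0.05, the lowest being 0.00198 for *Fos*, whose adjusted p was 0.848 by edgeR's quasi-likelihood test. Of all genes 3.81% had such a p in that fit. The number was 1 without knockout replicate 1 (*Jun*, 3.78% of all genes), 1 without knockout replicate 4 (*Fosl2*, 3.69%), and 0 without wild type replicate 2 (3.86%), wild type replicate 3 (3.19%), knockout replicate 2 (3.51%) and knockout replicate 3 (3.96%). The number of members without overlap was 0 in the other 6 fits, where it held for 13.2% (without wild type replicate 2), 11.6% (wild type replicate 3), 9.47%, 8.98%, 9.23% and 9.16% (knockout replicates 1 to 4) of all genes. Without wild type replicate 3 the log2 fold change of *Fos* was 0.43 and that of *Junb* 0.15. In that fit the difference exceeded the within-genotype SD for 1 member, *Fosl2*, against 28.7% of all genes. Without knockout replicate 4 it did so for 3 members against 26.7%, and without knockout replicate 3 for 8 members against 27.3%. The number was 7 against 30.2% without wild type replicate 1, 6 against 31.3% without wild type replicate 2, 6 against 26.8% without knockout replicate 1 and 7 against 26.7% without knockout replicate 2. Without knockout replicate 3, the mouse with few *Xist* reads, the log2 fold change was 0.80 for *Fos*, 0.58 for *Jun* and 0.21 for *Fosl2*. Leaving out knockout replicate 4 took the log2 fold change of *Fosb* from 0.62 to 0.20 and that of *Maff* from 0.37 to 0.16.

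**Figure D5:**
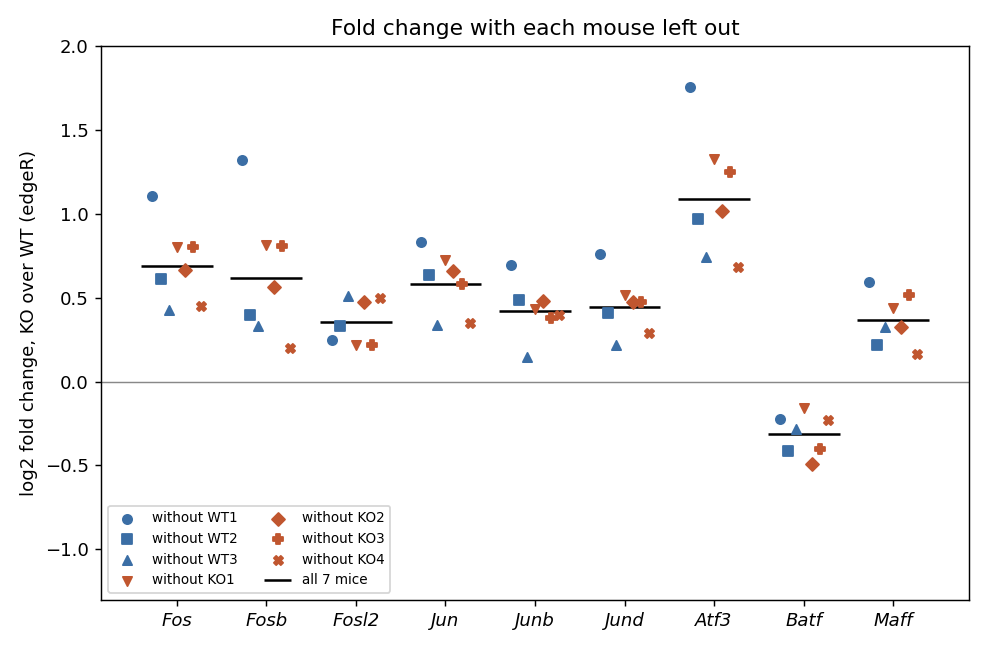
Log2 fold change of knockout over wild type by edgeR (y axis) for each AP-1 gene (x axis) with all 7 mice (black line) and with each mouse left out (symbols, blue for a wild type and orange for a knockout mouse). Values are highest without wild type replicate 1 for 7 of the 8 genes above 0, and no value crosses 0.

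Other genes of the pathway were taken from lists written by hand. Of 16 further AP-1, ATF, CNC and large or small Maf genes, 13 passed the filter on low counts, 0 were called, and 10 had a positive log2 fold change, with a median of 0.13. The smallest unadjusted p-values were those of *Nfe2l2* (log2 fold change 0.25), which encodes the oxidative stress factor Nrf2, *Atf4* (0.19) of the integrated stress response, and *Mafg* (0.19). *Fosl1*, which encodes Fra-1, had 0 reads in every mouse. Of 22 kinases and factors that act upstream of AP-1, 20 passed and 0 were called, with a median log2 fold change of 0.038. *Map3k1*, which encodes the kinase MEKK1, stood at 47.1 to 60.2 CPM in wild type and 34.7 to 46.5 CPM in knockout mice without overlap (log2 fold change −0.41, adjusted p = 0.999 by edgeR's quasi-likelihood test). *Map2k6* (0.58) and *Elk3* (−0.18) also did not overlap and were not called, which makes 3 of the 20 genes without overlap, where 5.16% of all genes had none.

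Of 28 other immediate-early genes listed, 27 were among the symbols counted, 26 passed the filter and 0 were called. Of these, 23 had a positive log2 fold change, with a median of 0.31, and 2, *Nr4a2* and *Ier5*, did not overlap between genotypes, where 5.16% of all genes did not. *Nr4a2*, an orphan nuclear receptor, stood at 67.4, 39.4 and 25.97 CPM in wild type replicates 1 to 3 and at 72.5 to 102.0 CPM in knockout mice (log2 fold change 0.96, standard error 0.25, adjusted p = 0.811 by edgeR's quasi-likelihood test). The log2 fold change was 0.70 for *Klf4* and 0.38 for *Ier5*. Wild type replicate 3 was the lowest mouse for 21 of the 26 genes, and knockout replicate 4 the highest for 15. The list summed to 7403, 5517 and 3905 CPM in the wild type mice and to 6037, 6299, 6588 and 9918 CPM in the knockout mice, by replicate. The summed AP-1 genes had the same highest and lowest mouse, with 3730, 2509 and 1637 CPM in wild type and 2922, 3756, 3461 and 5646 CPM in knockout mice.

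Heat shock genes, which cell isolation is also known to raise, had another order of mice. Of 11 listed, 10 passed the filter and 0 were called, all with a log2 fold change above 0 and a median of 0.19. Knockout replicate 3 was the highest mouse for 9 of the 10, and the list summed to 8304 CPM there, while the remaining 6 had 4985 to 5810 CPM. *Dnajb1* (log2 fold change 0.24), *Hspd1* (0.22) and *Hspa8* (0.15) had the smallest unadjusted p-values.

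Of 15 genes known as AP-1 targets, 14 passed the filter, 0 were called and 9 had a positive log2 fold change, with a median of 0.29. *Tnf*, a cytokine that is also controlled by NF-kB, stood at 9.01 to 9.78 CPM in wild type and 19.97 to 21.4 CPM in knockout mice (log2 fold change 1.15, standard error 0.24, adjusted p = 0.364 by edgeR's quasi-likelihood test). In *Tnf* the mice of a genotype lay close together. The chemokine *Ccl2* had a log2 fold change of 1.13 and the cytokine *Il1b* of 0.78, both with overlap between genotypes.

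Marker sums of other cells that the depleted marrow can hold are given here beside these results. The 5 monocyte markers summed to 2048 to 2085 CPM in wild type and 2178 to 2969 CPM in knockout mice, the 7 macrophage markers to 324 to 392 CPM and 219 to 281 CPM, and the 6 eosinophil, basophil and mast cell markers to 2511 to 2656 CPM and 1758 to 2368 CPM, each without overlap. Single markers without overlap numbered 0 of 5 monocyte, 6 of 7 macrophage and 2 of 6 eosinophil, basophil and mast cell genes. Of all genes tested, 5.16% had no overlap, and no such share was taken for sums of genes. The monocyte sum was largely *Ly6c2*, at 1176 to 1299 CPM in wild type and 1277 to 1961 CPM in knockout mice. The sums of the 4 promyelocyte, 6 B cell, 5 T cell, 4 NK cell, 8 erythroid, 4 megakaryocyte, 5 dendritic and 9 stem and progenitor markers overlapped between genotypes. Knockout replicate 4, highest for most AP-1 genes, had the highest megakaryocyte sum, 856 CPM, where the remaining 6 had 99.6 to 350.1 CPM, and the highest B cell and erythroid sums. The part of these cells in the AP-1 levels was not tested.

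The genes whose levels over the 7 mice were most like the mean z-score of the 9 members were sought among 6651 other genes with a mean of at least 20 CPM. The Pearson correlation was 0.975 for *Rnu11*, a minor spliceosomal RNA, 0.968 for *Ppp1r15a* (GADD34), 0.964 for *Rhob* and 0.963 for *Psd*. *Pxylp1*, *Brd9*, *Atp6v0b*, *Trib1* and *Neat1* followed, down to 0.943. *Neat1*, the RNA of nuclear paraspeckles, stood at 929, 522 and 438 CPM in wild type replicates 1 to 3 and at 908 to 1151 CPM in knockout mice (log2 fold change 0.75, standard error 0.22). With 7 mice and this many genes, high values occur among unrelated genes, and the likeness is a description.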

How the data were processed

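Lin- bone marrow RNA of 7 mice, 500 ng each, was sequenced as 3′-end libraries in single reads of 75 bp. Per the study's methods, the authors used STAR for alignment and quantification on an Ensembl mouse annotation, and the labels name GRCm38, FastQC and DESeq2. The deposited values are raw counts per gene symbol. The 5 tally rows that end each file were left out. They held 27.0% to 31.6% (reads on no gene) and 1.99% to 2.40% (ambiguous) of a library. The layout is not that of STAR's own count table, and the counted strand is not given in the sources used here.

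TMM scaling, filterByExpr (11265 genes kept) and the robust quasi-likelihood test were run in edgeR 4.0.16 (R 4.3.3), with Benjamini-Hochberg adjustment over all genes. A gene was called at an adjusted p under 0.25, the rate of the study. The standard error is the log2 fold change divided by the square root of F. DESeq2 1.42.0, limma-voom (limma 3.58.1), other scalings and filters, the replicate number as a block, *Rn45s* removed or as a covariate, other pseudocounts and each mouse left out were alternatives. The scripts were tested on simulated data.

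The AP-1 genes and all lists were chosen with earlier results of these data known. The genes named are the 9 members, *Hdgfl2*, up to 3 genes per pathway list with the smallest p, and the 10 genes most like the members over the mice, of which 1 is not reported here. *Xist*, *Ddx3y*, *Rn45s*, *Kit*, *Myb* and *Fosl1* are named as checks. Coordinates follow GENCODE M21 for GRCm38, which holds 97.6% of the symbols. Protein sequences were not used here.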

Additional observations from a re-analysis of the deposited data

Results flagged for a closer look

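Of 55 results checked for a knockout mouse far from the remaining 3, 6 had one. About 2.75 would by chance if the results were independent and normally distributed, which was not checked. Some results overlap, such as *Rhob* and the sum that holds it, so 6 against 2.75 is not read as an excess. The 3 wild type mice are too few for this check. None of the 6 was an AP-1 gene. The sum of the other immediate-early genes was 9918 CPM in knockout replicate 4, and *Rhob*, a gene of that list, stood at 150.9 CPM in the same mouse. The sum of the megakaryocyte markers was 856 CPM, again in knockout replicate 4. *Hspd1* stood at 154.9 CPM in knockout replicate 3, the mouse in which most heat shock genes were highest. *Ccl2* was far below the rest at 4.26 CPM in knockout replicate 1, and *Elk3* at 35.4 CPM in knockout replicate 2. No cause was tested.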

How the results depend on the processing

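The number of AP-1 genes called was 0 and the number with a positive log2 fold change 8 in each of the 17 other fits, and no member changed direction. The median log2 fold change of 0.44 ran from 0.39 to 0.50 across the 10 fits with all mice and from 0.33 to 0.76 with a mouse left out. *Hdgfl2* was called in each of the 16 fits that tested it, from −5.62 to −4.86. It is removed when at least 10 counts in every mouse are required. The members whose difference exceeded the within-genotype SD numbered 5 with all mice and from 1 to 8 with a mouse left out, with a median ratio of 1.2 and from 0.768 to 1.73, and those without overlap numbered 0 and from 0 to 5. The median BCV, 26.5%, ran from 23.3% to 27.2% over 9 other fits. Over all genes 2 were called at 0.25. DESeq2 called 19, no filter on low counts 41, at least 10 counts in every mouse 1, the share of *Rn45s* as a covariate 8, and the omission of a mouse from 2 to 7, and the cause was not tested. The median difference of all genes lay between −0.0167 and 0.0039 under the scalings.

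The replicate numbers do not pair the mice: the correlation of deviations from the genotype mean was −0.025, −0.215 and −0.16 for same-numbered mice 1 to 3. With that number as a block 1 gene was called over all genes, 0 AP-1 genes were called, 8 had a positive log2 fold change, the median was 0.39, the median BCV 24.3% and the log2 fold change of *Hdgfl2* −4.91. The planned protein comparison was not run. Depth limits *Batf*, *Maff* and *Atf3* most, with 30 to 37 reads in their lowest mice.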

Other observations

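*Bach2*, a leucine zipper factor that competes with AP-1 for DNA sites and is known for its role in lymphoid cells, was named after its values were seen. Its order among the wild type mice ran opposite to that of most AP-1 genes, with 33.7, 54.7 and 94.1 CPM in replicates 1 to 3. The 4 knockout mice had 72.9, 42.5, 44.0 and 72.1 CPM, so no opposite order ran through all mice. The ratio of its BCV, 30.9%, to the trend lay at the 98.7 percentile of all genes tested. Among the other immediate-early genes, *Klf2* and *Dusp1*, also named after their values were seen, had BCVs of 61.7% and 48.8%. *Klf2* stood at 1595 CPM in knockout replicate 4, while the remaining 6 mice had 248 to 548 CPM. *Dusp1* stood at 1063 CPM in that mouse and at 163.8 CPM in wild type replicate 3.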
